A study of Mus musculus with 8 samples.

Results

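The lysosome genes described here are 40 genes of the lysosome, taken by symbol from a count table of 21240 genes: membrane proteins, cathepsins, other hydrolases, subunits of the proton pump, the regulators Tfeb and Tfe3, and the autophagy receptor Sqstm1. They were followed in NMuMG cells, an established mouse mammary gland epithelial line labelled wild type, grown in medium with serum and insulin. The cells received the vehicle DMSO or BRM014, a small molecule that inhibits the ATPase activity of SMARCA4 and SMARCA2, the catalytic subunits of SWI/SNF chromatin remodellers. The 4 groups were DMSO for 6 h, BRM014 for 6 h, DMSO for 30 h and BRM014 for 30 h, with 2 libraries each and 8 in all. Each value below therefore compares n = 2 with n = 2 libraries of 1 cell line. No dose of BRM014 is stated in the labels.

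The lysosome is the acidic compartment in which cells break down proteins, lipids and glycans delivered by endocytosis and autophagy. A vacuolar proton pump (V-ATPase) acidifies it, soluble hydrolases work at that pH, and heavily glycosylated membrane proteins line its limiting membrane. TFEB and TFE3, transcription factors of the MiT-TFE family, bind an E-box type sequence named the CLEAR element near many lysosomal genes and are held in the cytoplasm by mTORC1 when nutrients are plentiful. In the mammary gland, lysosomal cathepsins take part in the regression of the epithelium after weaning.

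Libraries held 17859693 to 29955366 counts, and replicates correlated with r = 0.990 to 0.994 across genes on the log2 scale of CPM (counts relative to library size, scaled with TMM factors). Counts of the 40 genes made up 0.740% to 1.03% of a library. Of 10 epithelial markers, 6 were measured above the filter on low counts, among them Krt8, Krt18 and Cdh1, whereas Epcam, Cldn3 and Cldn7 had 0 counts in all 8 libraries. Of the lysosome genes, 39 passed the filter. Ctss, a cathepsin best known from antigen-presenting cells, had 0 counts in every library, and a count of 0 allows up to 0.10 to 0.168 CPM (3 counts, depending on the library, counting error only).

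Promoter sequence was available for 35 of the 40 genes (RefSeq, build GRCm38.p6, from 250 bases before to 50 bases after the start of the gene). The first 7 windows below are shown because they hold TCACGTGA, the core of the CLEAR element, which is the same on both strands, and that of Lamp1 because it holds a shorter form at several places. A gene was counted if any of its promoters held the motif. Tfeb had 3 promoters, and Cln3, Ctsa, Psap and Tfe3 had 2 each. TCACGTGA occurred for 7 of the 35 lysosome genes (20.0%), for 304 of 27025 genes with a promoter (1.12%) and for 210 of 9240 tested genes with a promoter (2.27%). Capitals mark TCACGTGA or, where the outer bases differ, the shorter E-box CACGTG that lies within it.
Gla (chrX:134601178-134601248, minus strand, -243 to -173 from the start): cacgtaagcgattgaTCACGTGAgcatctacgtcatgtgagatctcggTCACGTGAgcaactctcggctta
Ctsa (chr2:164833745-164833792, plus strand, -28 to 20): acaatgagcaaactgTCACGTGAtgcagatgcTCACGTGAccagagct
Mcoln1 (chr8:3500432-3500495, plus strand, -87 to -24): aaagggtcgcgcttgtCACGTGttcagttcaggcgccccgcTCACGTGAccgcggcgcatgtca
Cln3 (chr7:126583336-126583401, minus strand, -165 to -100): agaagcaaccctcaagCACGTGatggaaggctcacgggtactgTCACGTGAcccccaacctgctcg
Ctsd (chr7:142387904-142387941, minus strand, -114 to -77): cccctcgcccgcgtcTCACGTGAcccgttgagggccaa
Atp6v1a (chr16:44139369-44139406, minus strand, -147 to -110): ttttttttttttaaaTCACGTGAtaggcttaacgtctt
Atp6v0d1 (chr8:105566046-105566083, minus strand, -19 to 19): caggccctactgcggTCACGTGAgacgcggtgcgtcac
Lamp1 (chr8:13159084-13159167, plus strand, -77 to 7): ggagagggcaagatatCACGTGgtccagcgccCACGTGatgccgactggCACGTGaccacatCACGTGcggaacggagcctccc

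Gla and Ctsa carried 2 copies of TCACGTGA within the windows shown. Lamp1 lacked the 8-base form and held CACGTG at 4 places just before its start. The shorter CACGTG, which includes every TCACGTGA, was found for 12 of 35 lysosome genes with a promoter (34.3%) and for 11.9% of tested genes with a promoter. Lamp1, Ctsl, Glb1, Naglu and Sgsh held it without the 8-base form. Neither motif was present in the windows of the 6 lipid and protein turnover genes with a promoter, nor in those of Tfeb, Tfe3 and Sqstm1. The 7 promoters with TCACGTGA belonged to genes that moved in different directions under BRM014 at 6 h: 2 rose (Mcoln1, Atp6v1a), 2 fell (Ctsd, Gla) and 3 did not pass the test (Cln3, Ctsa, Atp6v0d1).

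Inhibition of the SWI/SNF ATPases moved lysosome genes in both directions. At 6 h 5 of the 39 tested genes rose and 9 fell under BRM014, and at 30 h 4 rose and 12 fell. Sgsh, Ids, Atp6v1a and Sqstm1 rose at both times, and Scarb2, Cd63, Ctsb, Ctsc, Gla and Gusb fell at both times. Of the others, 19 passed the test at neither time, among them Lamp1, Lamp2, Npc1 and Tfe3.

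These counts were 12.8% higher and 23.1% lower at 6 h, where 9.35% of all 11835 tested genes were higher and 14.4% lower. At 30 h they were 10.3% higher and 30.8% lower, beside 16.8% and 19.1% of all tested genes. The median log2 fold change of the 39 genes was -0.08 at 6 h and -0.15 at 30 h, beside -0.01 and 0.00 over all tested genes. All tests were edgeR quasi-likelihood tests with Benjamini-Hochberg adjustment over all tested genes and a threshold of 0.05, and fold changes are given as log2 values ± standard error. Scaling by library totals gave 6 higher and 7 lower lysosome genes at 6 h and turned their median to 0.01, and scaling to ribosomal protein genes gave 3 and 4. Over all tested genes library totals gave 1691 higher and 1391 lower, and ribosomal protein scaling gave 791 and 1162. The latter ended the 6 h calls of Scarb2, Mcoln1, Ctsb, Ctsc, Ctsd, Glb1 and Ids (adjusted p = 0.0647 to 0.142) and the 30 h calls of Psap, Atp6ap1 and Tfeb (adjusted p = 0.154, 0.233 and 0.109). Leaving out 6 h BRM014 replicate 2 left 2 higher, either 6 h DMSO library 3 higher, 6 h DMSO replicate 1 also 5 lower, and 6 h BRM014 replicate 1 4 lower.

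**Figure D1:**
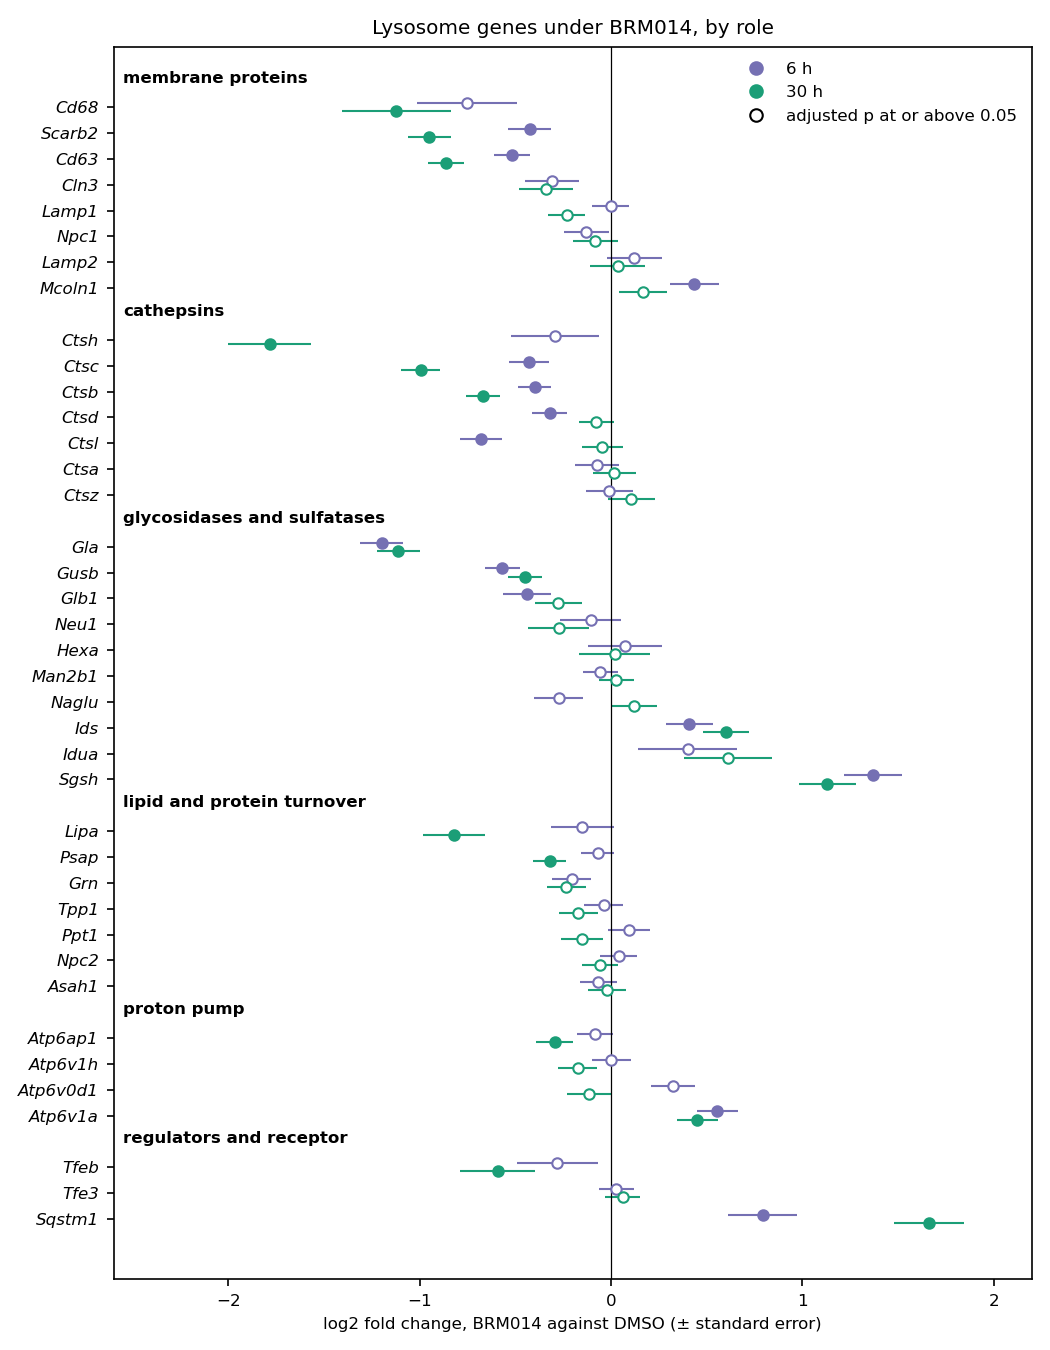
Log2 fold change of each tested lysosome gene in BRM014 against DMSO (horizontal axis, ± standard error from the edgeR fit, n = 2 against n = 2 libraries) at 6 h (purple) and 30 h (green), grouped by role; filled points passed an adjusted p of 0.05. Gla and Sgsh lie furthest apart at 6 h (-1.20 and 1.37), and Ctsh and Sqstm1 at 30 h (-1.78 and 1.66).

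Of the 8 membrane proteins, 2 fell and 1 rose at 6 h (25% and 12.5%, beside 14.4% and 9.35% of all tested genes), and 3 fell at 30 h (37.5%, beside 19.1%), when the other 5 did not pass. Cd63, a tetraspanin of lysosomes and exosomes, was at 201 and 214 CPM in DMSO at 6 h and at 142 and 147 CPM in BRM014. It was at 253 and 260 CPM in DMSO and at 133 and 149 CPM in BRM014 at 30 h. The treated libraries lay below the controls at both times, with log2 fold changes of -0.52 ± 0.09 (adjusted p = 0.00116) and -0.86 ± 0.09 (adjusted p = 1.05e-05). Scarb2 encodes LIMP-2, the receptor that carries glucocerebrosidase to the lysosome. Its levels were 86.5 and 85.7 CPM in DMSO and 59.7 and 68.3 CPM in BRM014 at 6 h, and 83.4 and 100.9 CPM against 47.8 and 47.6 CPM at 30 h. The groups did not overlap at either time, with fold changes of -0.43 ± 0.11 (adjusted p = 0.0139) and -0.95 ± 0.11 (adjusted p = 2.45e-05). The 6 h call of Scarb2 was lost without either 6 h DMSO library or 6 h BRM014 replicate 1 (adjusted p = 0.0565 to 0.158).

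Cd68, a LAMP family protein most abundant in macrophages, was low in these cells. It was at 6.96 and 7.95 CPM in DMSO and 3.64 and 5.16 CPM in BRM014 at 6 h, which did not pass the test (-0.75 ± 0.26, adjusted p = 0.0527) but passed in 6 of 17 alternatives, limma-voom among them (adjusted p = 0.0483). At 30 h it was at 5.98 and 3.72 CPM in DMSO and 2.35 and 2.09 CPM in BRM014, and it fell (-1.12 ± 0.29, adjusted p = 0.00773). The 30 h call was lost without 30 h DMSO replicate 1 (-0.75, adjusted p = 0.0863) or 30 h BRM014 replicate 2 (-1.02, adjusted p = 0.0664), and the difference between the effects at the 2 times did not pass (adjusted p = 0.645).

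The summed level of macrophage markers was also lower under BRM014, but it rested on few genes. Of 11 in the table, 2 passed the filter (Mrc1 and Cx3cr1) and 1 reached 1 CPM in all libraries. Adgre1 and Tyrobp had 0 counts in all libraries. Mrc1 was at -1.42 at 6 h and -0.75 at 30 h (adjusted p = 7.6e-05 and 0.00677), and Cx3cr1 at -2.42 and -4.49 (adjusted p = 0.00981 and 0.0101). The summed level of the 11 was 17.2 to 21.9 CPM in DMSO and 6.86 to 7.59 CPM in BRM014 at 6 h, and 9.67 to 9.95 CPM against 5.18 to 6.05 CPM at 30 h. Whether the cultures held macrophages was not tested, nor was the part of these markers in the Cd68 result. In bulk RNA fewer cells of a type and less RNA per cell cannot be told apart.

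The other membrane proteins differed little. Mcoln1, the lysosomal calcium channel TRPML1 whose promoter is shown above, rose at 6 h (0.43 ± 0.13, adjusted p = 0.0255) and was at 0.17 ± 0.13 at 30 h (adjusted p = 0.33; difference between times, adjusted p = 0.452). That 6 h call was lost without either 6 h DMSO library (adjusted p = 0.0790 and 0.11) and without 6 h BRM014 replicate 2, where the value was 0.23 (adjusted p = 0.356). Lamp1, a main structural protein of the lysosomal membrane, was at 811 and 834 CPM in DMSO and 796 and 846 CPM in BRM014 at 6 h. At 30 h it was at 841 and 998 CPM against 770 and 795 CPM. The groups overlapped at 6 h and not at 30 h, and neither difference passed (0.00 ± 0.10 and -0.23 ± 0.10, adjusted p = 0.989 and 0.0788). Lamp2, Npc1 and Cln3 ranged from -0.34 to 0.12 and passed at neither time.

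Among the cathepsins, the lysosomal proteases, 4 of 7 tested genes fell at 6 h and 3 at 30 h, and the rest did not pass. The share lower was 57.1% at 6 h and 42.9% at 30 h, beside 14.4% and 19.1% of all tested genes. Ctsb, the cysteine protease cathepsin B, was at 463 and 480 CPM in DMSO and 349 and 366 CPM in BRM014 at 6 h, and at 554 and 595 CPM against 365 and 357 CPM at 30 h. The libraries separated fully at both times (-0.40 ± 0.09, adjusted p = 0.00457, and -0.67 ± 0.09, adjusted p = 5.55e-05), and the 6 h call was lost without 6 h BRM014 replicate 1 (adjusted p = 0.0705). Ctsc, which activates granule serine proteases, was at 47.5 and 47.0 CPM in DMSO and 33.8 and 36.5 CPM in BRM014 at 6 h. At 30 h it was at 70.8 and 70.7 CPM in DMSO and 33.5 and 37.3 CPM in BRM014. Ctsc fell by 0.43 ± 0.10 on the log2 scale at 6 h (adjusted p = 0.00943) and by 1.00 ± 0.10 at 30 h (adjusted p = 7.98e-06), and the treated libraries lay between 33.5 and 37.3 CPM at both times. Its 6 h call was lost without 6 h DMSO replicate 1 (adjusted p = 0.0715) or 6 h BRM014 replicate 1 (adjusted p = 0.105).

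Ctsh, an aminopeptidase of the papain family, had the largest fall of the 39 genes at 30 h. In DMSO it was at 16.2 and 24.5 CPM at 6 h and at 72.5 and 124 CPM at 30 h. In BRM014 it was at 15.9 and 17.3 CPM at 6 h and at 28.9 and 28.2 CPM at 30 h. The 2 DMSO libraries of 30 h were thus far above all others and apart from each other. The BRM014 effect did not pass at 6 h (-0.29 ± 0.23, adjusted p = 0.407) and was -1.78 ± 0.22 by 30 h (adjusted p = 3.08e-05). The 2 effects differed by -1.49 ± 0.32 (adjusted p = 0.0125). That difference was lost without 6 h DMSO replicate 1, 6 h BRM014 replicate 2 or 30 h BRM014 replicate 2 (adjusted p = 0.0593 to 0.0643) and with ribosomal protein scaling (adjusted p = 0.0773).

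Ctsl, cathepsin L, showed the other order in time. It was at 1259 and 1101 CPM in DMSO at 6 h and 753 and 720 CPM in BRM014. At 30 h it was at 824 and 669 CPM in DMSO and 741 and 706 CPM in BRM014. The groups separated at 6 h (-0.68 ± 0.11, adjusted p = 0.000514) and overlapped at 30 h (-0.05 ± 0.11, adjusted p = 0.78), with a difference between the effects of 0.64 ± 0.15 (adjusted p = 0.0256). Of all tested genes, 3.89% had a difference above 0 and 2.59% below 0 that passed, beside 1 and 2 of the 39 lysosome genes. Ctsd, the aspartic protease cathepsin D, was at 943 and 936 CPM in DMSO and 712 and 793 CPM in BRM014 at 6 h, and at 1022 and 1115 CPM against 986 and 1041 CPM at 30 h. Its groups separated at 6 h (-0.32 ± 0.09, adjusted p = 0.0219) and overlapped at 30 h (-0.08 ± 0.09, adjusted p = 0.551), and the difference did not pass (adjusted p = 0.324). The 6 h call of Ctsd was lost without any of the 4 libraries of 6 h in turn (adjusted p = 0.0605 to 0.236). The Ctsc and Ctsl differences between times were lost in 7 and 6 of the 8 fits that leave out a library (adjusted p up to 0.169 and 0.134). Among these fits Ctsc passed only without 30 h DMSO replicate 2, and Ctsl only without 6 h DMSO replicate 2 or 30 h DMSO replicate 1. Ctsa and Ctsz did not pass at either time (-0.08 to 0.11).

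**Figure D2:**
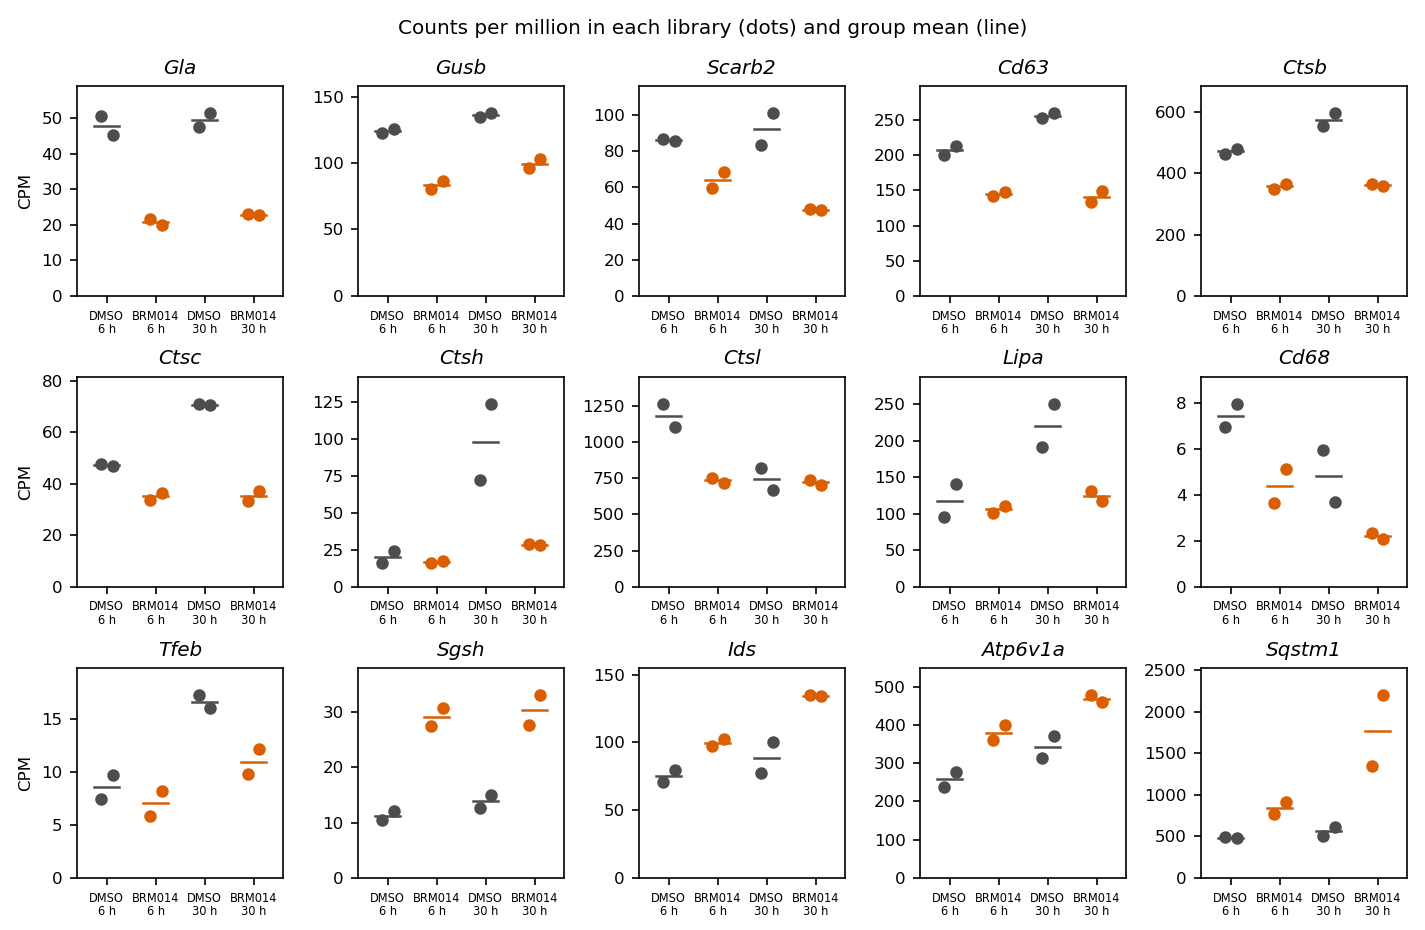
CPM (vertical axis, starting at 0, TMM scaled) of 15 lysosome genes in each of the 8 libraries; dots are libraries, lines are group means, grey is DMSO and orange is BRM014. The Ctsh and Ctsl panels show control levels that changed between 6 h and 30 h, and the Sqstm1 panel shows the 2 30 h BRM014 libraries at 1342 and 2195 CPM.

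The glycosidases and sulfatases, which strip sugars and sulfates from glycans, held the 2 largest changes of the 39 genes at 6 h and went both ways. Of 10, 2 rose and 3 fell at 6 h (20% and 30%, beside 9.35% and 14.4% of all tested genes). At 30 h 2 rose and 2 fell (20% each, beside 16.8% and 19.1%). Gla, alpha-galactosidase A, the enzyme lacking in Fabry disease and the gene whose promoter holds 2 copies of TCACGTGA, was at 50.6 and 45.3 CPM in DMSO and 21.7 and 20.1 CPM in BRM014 at 6 h. The 30 h levels were 47.6 and 51.4 CPM against 23.2 and 22.7 CPM. All treated libraries lay below all controls, with fold changes of -1.20 ± 0.11 (adjusted p = 7.43e-06) and -1.11 ± 0.11 (adjusted p = 6.47e-06). Gusb, beta-glucuronidase, was at 123 and 126 CPM in DMSO and 80.8 and 86.8 CPM in BRM014 at 6 h, and at 135 and 137 CPM against 96.5 and 103 CPM at 30 h. It fell at both times without overlap (-0.57 ± 0.09, adjusted p = 0.000504, and -0.45 ± 0.09, adjusted p = 0.00173). Glb1, beta-galactosidase, fell at 6 h (-0.44 ± 0.13, adjusted p = 0.022) and was at -0.27 ± 0.12 at 30 h (adjusted p = 0.0972; difference, adjusted p = 0.654). Its 6 h call was lost without either 6 h DMSO library or 6 h BRM014 replicate 1 (adjusted p = 0.0898 to 0.22).

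Sgsh and Ids, a sulfamidase and a sulfatase that act in heparan sulfate breakdown, rose instead. Sgsh was at 10.5 and 12.1 CPM in DMSO and 27.5 and 30.7 CPM in BRM014 at 6 h, and at 12.7 and 15.0 CPM against 27.6 and 33.0 CPM at 30 h. All 4 treated libraries lay above all 4 controls, with fold changes of 1.37 ± 0.15 (adjusted p = 2.67e-05) and 1.13 ± 0.15 (adjusted p = 6.09e-05). In the GENCODE M21 annotation, exons of Sgsh overlap those of Card14 on the opposite strand, and the strand setting of the authors' counting was not given. Card14 fell at both times (-2.71 and -1.97, adjusted p = 0.000142 and 0.000845), and its part in the Sgsh value was not tested. Ids was at 70.4 and 79.7 CPM in DMSO and 97.1 and 102 CPM in BRM014 at 6 h, and at 77.0 and 100.02 CPM against 135 and 134 CPM at 30 h. Its groups separated at both times (0.41 ± 0.12, adjusted p = 0.0245, and 0.60 ± 0.12, adjusted p = 0.00161), and the 6 h call was lost without 6 h DMSO replicate 1 or either 6 h BRM014 library (adjusted p = 0.0759 to 0.159). Of the other enzymes of heparan sulfate breakdown in the list, Gusb fell at both times, as given above, and Naglu and Idua passed at neither time. Idua was at 0.61 ± 0.23 at 30 h (adjusted p = 0.0526) and passed in 5 of 17 alternatives (adjusted p = 0.0445 with library totals). Hexa, Neu1 and Man2b1 ranged from -0.27 to 0.07.

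The 7 genes of lipid and protein turnover lay between -0.21 and 0.09 at 6 h, and 0 of them passed in edgeR (0 also at an unadjusted p below 0.05, and 0 in DESeq2 and limma-voom). At 30 h 2 of them fell (28.6%, beside 19.1% of all tested genes). Lipa, the acid lipase that frees cholesterol and fatty acids from lipoproteins, was at 95.3 and 141 CPM in DMSO and 102 and 111 CPM in BRM014 at 6 h. By 30 h its levels were 191 and 249.97 CPM in DMSO and 132 and 118 CPM in BRM014. The groups overlapped at 6 h and separated at 30 h (-0.15 ± 0.16, adjusted p = 0.563, and -0.82 ± 0.16, adjusted p = 0.00157), while the difference between the effects did not pass (-0.67 ± 0.23, adjusted p = 0.109; 0.0431 in DESeq2). Psap, the precursor of the saposins that help sphingolipid hydrolases, fell at 30 h (-0.32 ± 0.09, adjusted p = 0.011), a call lost without 30 h DMSO replicate 2 (adjusted p = 0.0532) or 30 h BRM014 replicate 1 (adjusted p = 0.0653). The ceramidase Asah1, the cholesterol carrier Npc2, the peptidase Tpp1, the thioesterase Ppt1 and progranulin (Grn) ranged from -0.23 to -0.02 at 30 h and did not pass.

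Of the 4 proton pump genes, the catalytic subunit rose. Atp6v1a, the subunit that binds ATP, was at 238 and 278 CPM in DMSO and 359 and 399 CPM in BRM014 at 6 h, and at 315 and 370 CPM against 477 and 459 CPM at 30 h. The treated libraries lay above their controls at both times (0.56 ± 0.11, adjusted p = 0.00227, and 0.45 ± 0.11, adjusted p = 0.00565). Atp6ap1, an accessory subunit, fell at 30 h (-0.29 ± 0.09, adjusted p = 0.0272), a call lost without either 30 h DMSO library or 30 h BRM014 replicate 2 (adjusted p = 0.0534 to 0.189) or with the libraries of 30 h alone (adjusted p = 0.0589). Atp6v0d1, of the membrane sector, passed at neither time (0.32 ± 0.11, adjusted p = 0.0578, then -0.12 ± 0.11, adjusted p = 0.459). Its 6 h rise passed in 8 of the 17 alternatives, among them DESeq2 (adjusted p = 0.0393) and library totals (0.41, adjusted p = 0.0203). Atp6v1h, a regulatory subunit, was at 0.00 ± 0.10 and -0.17 ± 0.10.

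Of the 2 MiT-TFE regulators, Tfeb passed at 30 h and Tfe3 at neither time. Tfe3 was at 80.1 and 77.0 CPM in DMSO and 77.3 and 82.7 CPM in BRM014 at 6 h, and at 90.7 and 88.9 CPM against 94.1 and 93.1 CPM at 30 h. Its fold changes were 0.03 ± 0.09 and 0.06 ± 0.09 (adjusted p = 0.866 and 0.64). Tfeb was at 7.47 and 9.67 CPM in DMSO and 5.85 and 8.19 CPM in BRM014 at 6 h, and at 17.2 and 15.97 CPM against 9.74 and 12.1 CPM at 30 h. Tfeb groups overlapped at 6 h (-0.28 ± 0.21, adjusted p = 0.377) and separated at 30 h (-0.59 ± 0.19, adjusted p = 0.0298), and the difference between the effects did not pass (adjusted p = 0.592). The 30 h call was lost without either 30 h DMSO library or 30 h BRM014 replicate 1 (adjusted p = 0.0501 to 0.166).

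Sqstm1, which encodes the autophagy receptor p62, rose most at 30 h. It was at 495 and 476 CPM in DMSO and 763 and 917 CPM in BRM014 at 6 h. The 30 h levels were 503 and 614 CPM in DMSO and 1342 and 2195 CPM in BRM014. All treated libraries exceeded all controls, and the 2 BRM014 libraries of 30 h differed widely from each other. The fold changes were 0.79 ± 0.18 (adjusted p = 0.00584) and then 1.66 ± 0.18 (adjusted p = 1.22e-05), and the increase between times did not pass (0.87 ± 0.25, adjusted p = 0.0585; 1.61e-07 without a filter). The 6 h call was lost without 6 h DMSO replicate 2 (adjusted p = 0.0501) or 6 h BRM014 replicate 2 (adjusted p = 0.0745). Exons of Sqstm1 overlap those of Mrnip on the opposite strand, and Mrnip passed at neither time (-0.28 and -0.60).

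Between 6 h and 30 h most changes of the lysosome genes were rises. In DMSO, 21 of 39 were higher at 30 h than at 6 h (53.8%) and 1 was lower (Ctsl), beside 18.0% higher and 17.2% lower of all tested genes. In BRM014, 18 were higher (46.2%) and 2 lower (Scarb2 and Cd68), beside 19.6% and 16.9%. Rises with time were not limited to these genes. In the 7 other lists of lysosomal and autophagy genes described below, 35% of the tested genes were higher in each treatment. The shares ran from 9.52% of the sorting genes in each to 53.1% (DMSO) and 65.6% (BRM014) of the other hydrolases. The median log2 change of the 39 lysosome genes with time was 0.32 in DMSO and 0.25 in BRM014, beside 0.01 over all tested genes in each. These comparisons share no library with each other, though each shares libraries with the comparisons of BRM014 and DMSO above.

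In DMSO, 3 of 8 membrane proteins, 4 of 7 cathepsins, 5 of 10 glycosidases and sulfatases, 5 of 7 turnover genes, 3 of 4 proton pump genes and 1 of the 3 regulators and receptor rose with time. In BRM014 the same roles had 1, 4, 7, 3, 1 and 2 rises, and of the membrane proteins 2 fell. The membrane protein and pump gene that rose in BRM014, Lamp2 and Atp6v1a, lost the call without any of the 4 BRM014 libraries in turn (adjusted p = 0.0714 to 0.292). Ctsh rose most in DMSO (2.27 ± 0.22, adjusted p = 2.38e-05) and Tfeb rose by 0.95 ± 0.20 (adjusted p = 0.00301), followed by Lipa (0.90 ± 0.16), Idua (0.83 ± 0.25, adjusted p = 0.0218), Hexa (0.79 ± 0.19, adjusted p = 0.00639) and progranulin (0.76 ± 0.10, adjusted p = 0.000176). Without 30 h DMSO replicate 2 the rise in DMSO was 0.47 for Hexa and 0.71 for Idua. Naglu rose by 0.72 ± 0.12 in DMSO and by 1.11 ± 0.12 in BRM014 (adjusted p = 4.02e-05), and Ctsa by 0.67 ± 0.11 and 0.76 ± 0.11. Ctsl fell in DMSO (-0.66 ± 0.11, adjusted p = 0.000645) and was at -0.03 ± 0.11 in BRM014. Sqstm1 rose in BRM014 (1.07 ± 0.18, adjusted p = 0.00062; 0.68 without 30 h BRM014 replicate 2) and was at 0.20 ± 0.18 in DMSO (adjusted p = 0.399).

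Of the genes that rose with time, 13 did so in both treatments, 61.9% of those in DMSO and 72.2% of those in BRM014. For all tested genes these shares were 55.4% and 51.0%. Ctsc, Ctsb, Cd63, Lipa, Mcoln1, Ppt1, Atp6v0d1 and Atp6v1h passed in DMSO and not in BRM014, and Ctsz, Gusb, Ctsd, Ids and Sqstm1 passed in BRM014 and not in DMSO. Of these 13 genes, Ctsc had a difference that passed (-0.57 ± 0.15, adjusted p = 0.035). The counts depended on single libraries. Fewer lysosome genes rose in DMSO without 6 h DMSO replicate 1 or 30 h DMSO replicate 2. In BRM014 fewer rose without each of the BRM014 libraries in turn. These fits leave 1 library in a group, and in each of them fewer of all tested genes rose as well. Scaling by library totals gave 28 higher in DMSO and ribosomal protein scaling 17, with 1 lower in each. Over all tested genes these scalings gave 2754 and 1881 higher, and 1424 and 1035 lower. The calls of Scarb2 and Cd68 in BRM014 were lost without 6 h BRM014 replicate 2 (adjusted p = 0.114 and 0.153), and that of Cd68 also without 30 h BRM014 replicate 2 (adjusted p = 0.0906), while the rise of Tfeb in BRM014 (0.64 ± 0.20) fell short without 6 h BRM014 replicate 1 (0.42, adjusted p = 0.241) or 30 h BRM014 replicate 2 (0.46, adjusted p = 0.178).

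**Figure D3:**
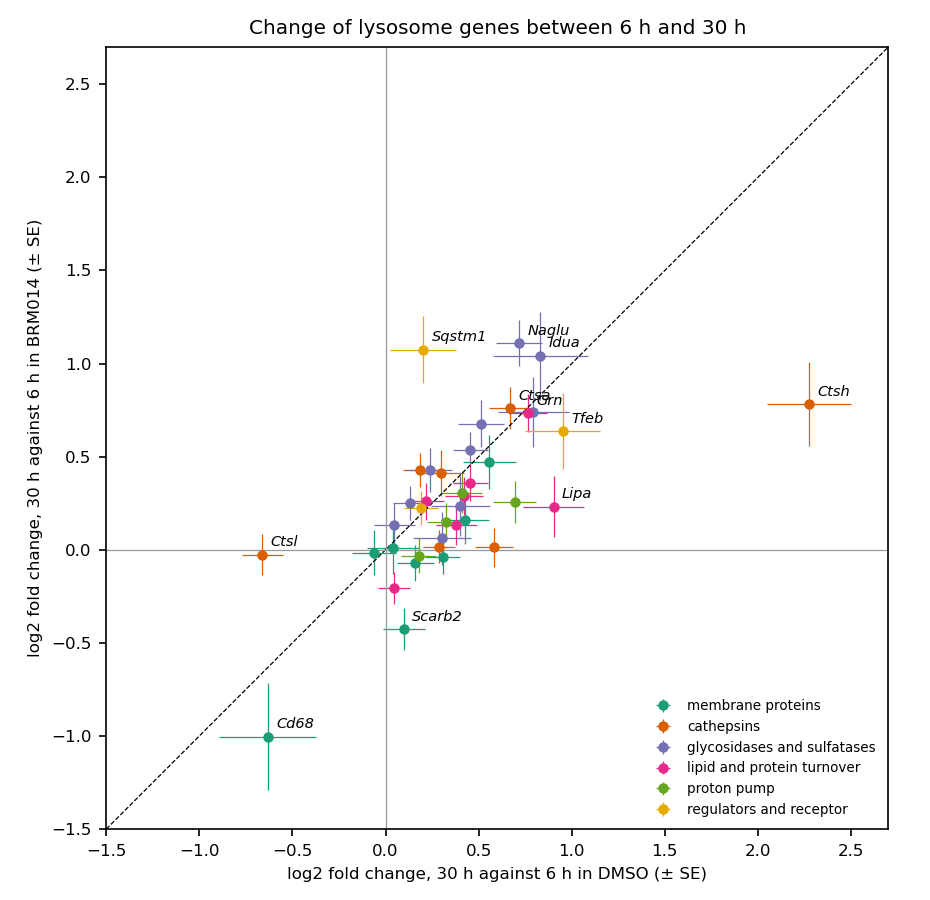
Log2 fold change of 30 h against 6 h in DMSO (horizontal) and in BRM014 (vertical), ± standard error, for the 39 tested lysosome genes, coloured by role; the dashed line marks equal change. Most points lie right of and above 0, with Ctsh (2.27 in DMSO, 0.78 in BRM014) and Sqstm1 (0.20 and 1.07) far from the line.

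Levels of different genes were compared as CPM per kilobase of exon (union of exons in GENCODE M21, build GRCm38, since exon lengths of the build used for counting were not used here). In DMSO at 6 h, Ctsd was highest (442 ± 2.33 SD, n = 2), followed by Lamp1 (369 ± 7.40), Psap (311 ± 8.29), Ctsl (191 ± 18.1) and Sqstm1 (172 ± 4.56). The gaps between Ctsd, Lamp1 and Psap exceeded their spread, whereas the gap between Ctsl and Sqstm1 was within their summed spread. The lowest measured were Sgsh (2.59 ± 0.26), Tfeb (2.13 ± 0.39) and Idua (0.73 ± 0.02), and Sgsh and Tfeb did not differ beyond their spread. In BRM014 at 30 h, Sqstm1 was at the top of the order with 627 ± 214, a spread that reached down to Ctsd (476 ± 18.1), and Ctsl had moved from the fourth to the eighth place (117 ± 3.93). Exons of 14 of the genes overlap another gene in this annotation, among them Ctsd, Glb1, Ctsl and Ctsb, whose values share this uncertainty. Fdft1, on the strand opposite to Ctsb with 774 overlapping bases, was at 0.01 at 6 h (adjusted p = 0.964) and fell at 30 h (-0.59, adjusted p = 0.0129), as Ctsb did, and its part in the Ctsb value was not tested.

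The 7 lists of other lysosomal and autophagy genes that were counted in the same way had 157 of 169 genes tested. At 6 h 21 rose and 21 fell (13.4% each), and at 30 h 28 rose and 31 fell (17.8% and 19.7%), beside 9.35% and 14.4%, and 16.8% and 19.1%, of all tested genes. The 6 h counts fell to 6 to 13 higher without any of the 4 libraries of 6 h in turn, and to 12 or 13 lower without 6 h DMSO replicate 1 or either 6 h BRM014 library. At 30 h 17 rose without 30 h DMSO replicate 1 and 14 fell without 30 h BRM014 replicate 2. Hydrolases outside the 40 genes rose more often than they fell. Of 32 tested, 9 rose and 5 fell at 6 h (28.1% and 15.6%, beside 9.35% and 14.4% of all tested genes). At 30 h 11 rose and 6 fell (34.4% and 18.8%, beside 16.8% and 19.1%), so the shares lower were close to those of all tested genes. The 9 at 6 h were 3 without 6 h DMSO replicate 1 or 6 h BRM014 replicate 2, and 5 without 6 h DMSO replicate 2 or with ribosomal protein scaling, and the 5 lower were 2 without 6 h DMSO replicate 1 or 6 h BRM014 replicate 1. Manba, beta-mannosidase, rose at 6 h (1.03 ± 0.13, adjusted p = 7.42e-05), as did Gaa, the acid glucosidase of glycogen breakdown (0.93 ± 0.16). At 30 h Naaa, an acid amidase, rose (1.18 ± 0.12, adjusted p = 9.34e-06), as did the carboxypeptidase Prcp (0.95 ± 0.15), and Smpd1, acid sphingomyelinase, fell (-0.79 ± 0.10, adjusted p = 3.15e-05). Each of these genes also passed at the other time, in the same direction. At 30 h Manba was at 0.62 ± 0.13 and Gaa at 1.00 ± 0.16. At 6 h Smpd1 was at -0.52 ± 0.10, Naaa at 0.55 and Prcp at 0.61. Naaa was at 0.41 without 6 h BRM014 replicate 2, and Prcp at 0.53 without 6 h DMSO replicate 1.

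Of 15 other V-ATPase subunits, 1 passed at 6 h, the rise of Atp6v0e2 (0.98 ± 0.11, adjusted p = 2.17e-05). The shares were 6.67% higher and 0% lower at 6 h, beside 9.35% and 14.4% of all tested genes. They were 20% and 13.3% at 30 h, beside 16.8% and 19.1%. At 30 h 3 rose (1 without 30 h BRM014 replicate 2) and 2 fell (1 in 7 of the 8 fits that leave out a library). Atp6v1b2, the partner of Atp6v1a in the catalytic head, fell at 30 h (-1.10 ± 0.12, adjusted p = 1.15e-05) from 339.98 and 439.73 CPM in DMSO to 182 and 181 CPM, whereas Atp6v1a rose. Atp6v0a1 rose at 30 h (0.52 ± 0.17, adjusted p = 0.0324), a call lost without 30 h DMSO replicate 1 (0.31) or 30 h BRM014 replicate 2 (0.26). Of 23 other membrane proteins, 3 rose and 1 fell at 6 h, and 3 rose (1 without 30 h DMSO replicate 1 or 30 h BRM014 replicate 1) and 5 fell at 30 h (3 without either BRM014 library of 6 h or 30 h BRM014 replicate 2). For these membrane proteins the shares were 13% higher and 4.35% lower at 6 h, and 13% and 21.7% at 30 h. Tpcn2, an endolysosomal channel, fell at both times (-0.59 ± 0.12 and -0.53 ± 0.12), and the peptide transporter Slc15a4 fell at 30 h (-0.96 ± 0.13, adjusted p = 9.13e-05), as did Tmem55b (-0.53 ± 0.10). Slc17a5, the sialic acid exporter, rose at 6 h (0.44 ± 0.12) and at 30 h (0.41). Its 30 h value was 0.28 without 30 h DMSO replicate 1 and 0.35 without 30 h BRM014 replicate 2. The 6 h calls of Tpcn2 and Slc17a5 were lost without 6 h BRM014 replicate 2 (adjusted p = 0.0538 and 0.17), and that of Slc17a5 also without 6 h DMSO replicate 1 (adjusted p = 0.111).

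Sorting genes, which route hydrolases by mannose 6-phosphate or sortilin-type receptors, had 2 rises and 1 fall among 21 at 6 h (9.52% and 4.76%, beside 9.35% and 14.4% of all tested genes). At 30 h 3 rose and 2 fell (14.3% and 9.52%, beside 16.8% and 19.1%). Gnptab, which makes the mannose 6-phosphate tag, fell at 6 h (-0.40) and at 30 h (-0.90 ± 0.12, adjusted p = 8.81e-05). Its 6 h value ranged from -0.32 to -0.45 when a library of 6 h was left out. The receptor Sorl1 fell at 30 h (-1.95 ± 0.34, adjusted p = 0.000653). Of 18 genes of mTORC1 control at the lysosome, 2 rose and 2 fell at 6 h (11.1% each), and 1 rose and 3 fell at 30 h (5.56% and 16.7%). The largest of the named changes there, Rragb at 30 h (-0.50 ± 0.15, adjusted p = 0.02), was lost without 30 h DMSO replicate 2 (-0.28) and without either 30 h BRM014 library (adjusted p = 0.0738 and 0.0739).

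Of 35 autophagy genes, 4 rose and 6 fell at 6 h (11.4% and 17.1%, beside 9.35% and 14.4% of all tested genes). At 30 h 6 rose and 6 fell (17.1% each, beside 16.8% and 19.1%). Without 6 h DMSO replicate 2 or 6 h BRM014 replicate 2, 1 rose at 6 h. At 30 h 3 rose without DMSO replicate 1, and 3 fell without DMSO replicate 2 or either BRM014 library. Atg9b fell from 39.4 and 32.2 CPM to 4.36 and 2.64 CPM at 6 h (-3.37 ± 0.27, adjusted p = 1.65e-06) and by 2.18 ± 0.26 at 30 h. Map1lc3a, an LC3 protein of the autophagosome membrane, rose at 30 h from 7.72 and 6.26 CPM to 21.8 and 22.6 CPM (1.67 ± 0.17, adjusted p = 8.12e-06). Map1lc3a also rose at 6 h (0.90). That value was 0.79 without 6 h DMSO replicate 2 and 0.80 without 6 h BRM014 replicate 2. Optn, an autophagy receptor like Sqstm1, fell at 6 h (-0.86 ± 0.12, adjusted p = 0.000177), Ulk2 rose at 6 h (0.77 ± 0.12) and Calcoco1 at 30 h (0.84 ± 0.12).

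Of the 13 genes of lysosomal damage and exocytosis, 6 fell at 6 h (46.2%, beside 14.4%), and at 30 h 7 fell and 1 rose (53.8% lower, beside 19.1%). Galectins, which bind glycans exposed on broken lysosomes, were among them. Lgals8 fell at 6 h (-1.11 ± 0.12, adjusted p = 1.89e-05) and at 30 h (-0.45, and -0.27 without 30 h BRM014 replicate 2). Lgals9 fell at both times (-0.82 ± 0.10 and -0.74 ± 0.10), and Lgals3 at 30 h (-0.46 ± 0.10, adjusted p = 0.004). Trim16, a partner of galectin-3 in the clearance of damaged lysosomes, fell at 6 h (-1.10 ± 0.12, adjusted p = 2.93e-05). Vamp7, a SNARE protein of lysosome fusion, rose at 30 h (0.56 ± 0.14, adjusted p = 0.0074). The 30 h count of lower genes was 4 without 30 h DMSO replicate 1, 1 without 30 h BRM014 replicate 2 and 2 with ribosomal protein scaling. The Lgals3 call at 30 h was lost without the first of these libraries (-0.30, adjusted p = 0.0531) and without the other (adjusted p = 0.0506), and the Vamp7 call without 30 h BRM014 replicate 1 (adjusted p = 0.0606).

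**Figure D4:**
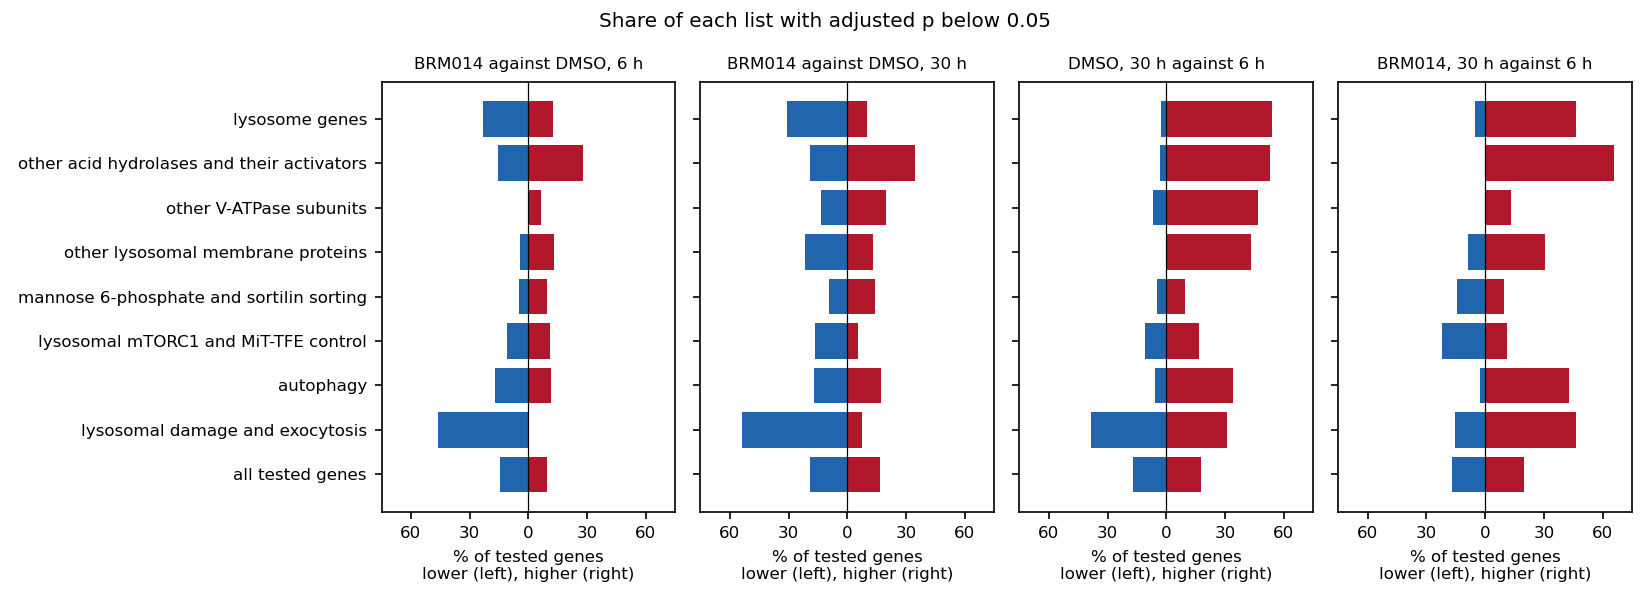
Share of tested genes (horizontal axis, percent) with adjusted p below 0.05 that were lower (blue, left) or higher (red, right) in 4 comparisons, for the lysosome genes, 7 other lists and all tested genes. In the comparisons of 30 h with 6 h in DMSO and in BRM014, 53.8% and 46.2% of the lysosome genes were higher. Beside this stood 53.1% and 65.6% of the other acid hydrolases, 9.52% of the sorting genes in each, and 18.0% and 19.6% of all tested genes.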

How the data were processed

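RNA-seq libraries of NMuMG cells (4 groups, 2 biological replicates each per the labels) were analysed. Labels do not say whether replicates were separate cultures, so p-values measure the spread between these libraries. The authors deposited raw counts, 1 row per Entrez gene ID and symbol. Stranded total RNA was sequenced as single reads, per the labels' protocols. The submitters' processing notes name featureCounts, Subread, SAMtools 0.1.19 and build mm9. Strand setting, annotation and further versions are not given in the sources used here.

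Counts were tested with edgeR 4.0.16 (R 4.3.3): filterByExpr (11835 of 21240 genes), TMM factors (0.935 to 1.05), and 1 quasi-likelihood fit of 4 group means over 8 libraries (4 residual degrees of freedom), with Benjamini-Hochberg adjustment over all tested genes per comparison. Standard errors are the fold change divided by the square root of F. The procedure was tested on simulated data for BRM014 against DMSO at 6 h (11633 genes): 29 of 66 genes changed by 0.5 on the log2 scale were recovered, 59 of 67 at 1 and 62 of 67 at 2. Also called were 11 of the other genes, which were all simulated without a change. In the data far more genes were called at 6 h (1106 higher and 1709 lower), so these recovery rates need not hold there. Replicates spread beyond sampling noise (6.72 to 17.9 in chi-square over its degrees of freedom).

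The 40 genes, their roles and the other lists were chosen with earlier results of these data known. Values in every library are given for members with adjusted p below 0.05 and a log2 change of at least 0.5 in size at 6 h or 30 h, and for Tfeb, Tfe3, Sqstm1, Lamp1 and Ctsd; from each other list, the up to 3 genes with the smallest p among those that passed at each time could be named. Card14, Mrnip and Fdft1 were named for their overlap after values were seen. Alternatives were RLE factors, library totals, ribosomal protein scaling (76 genes), a filter of 1 CPM in 4 or more libraries, no filter, limma-voom (limma 3.58.1), DESeq2 1.42.0, the replicate number as a block, the 4 libraries of a comparison alone, and leaving out each library. With 1 library left in a group, that library is assumed to vary like the others.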

Additional observations from a re-analysis of the deposited data

Results flagged for a closer look

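The BRM014 effect differed between 30 h and 6 h for 3 lysosome genes by the interaction test in edgeR, with the 6 h effect subtracted from the 30 h effect. The difference was -0.57 for Ctsc (adjusted p = 0.035), -1.49 for Ctsh (adjusted p = 0.0125) and 0.64 for Ctsl (adjusted p = 0.0256). Of all 11835 tested genes, 3.89% had a difference above 0 and 2.59% below 0 that passed, beside 1 and 2 of the 39 lysosome genes. With 2 libraries per group, groups were too small to look for a library far from the others.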

How the results depend on the processing

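The fold changes of Gla, Sgsh, Cd63, Gusb and Atp6v1a at both times, Ctsl at 6 h, and Scarb2, Ctsb, Ctsc, Ctsh, Lipa, Ids and Sqstm1 at 30 h kept their direction and side of the threshold under all 17 alternatives. Ribosomal protein scaling gave 3 higher and 4 lower lysosome genes at 6 h, 0 with a difference below 0 between times, and 1 lower with time in BRM014. Over all tested genes these numbers were 791, 1162, 114 and 841. The cause was not tested. Without a filter, 2 and 5 differences passed above and below 0, and 2 genes fell with time in DMSO. DESeq2 gave 4 differences below 0. Over all tested genes there were 719 and 590 differences and 2126 falls without a filter, and 395 differences below 0 in DESeq2. The median at 6 h turned from -0.08 to 0.00903 with library totals. Ribosomal protein scaling moved the median of all genes from 0.01 to 0.12 for time in BRM014. For the 7 other lists, ribosomal protein scaling gave 12 higher and 15 lower at 6 h and 16 lower at 30 h, and the libraries of 30 h alone 20 lower. CACGTG in place of TCACGTGA raised the number of lysosome genes with the motif from 7 to 12.

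Leaving out a library gave 2 to 6 higher and 4 to 10 lower lysosome genes at 6 h, 4 to 5 and 9 to 12 at 30 h, 0 to 1 and 0 to 4 differences above and below 0, 13 to 23 higher and 1 to 2 lower with time in DMSO, and 6 to 19 and 0 to 2 in BRM014. For the other lists it gave 6 to 25 higher and 12 to 25 lower at 6 h, and 17 to 30 and 14 to 30 at 30 h.

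With the replicate block, 6 lysosome genes were higher and 10 lower at 6 h, and 5 higher and 16 lower at 30 h. The differences that passed were 2 above and 4 below 0. Over all tested genes the block gave 1359 higher and 1995 lower at 6 h, 2329 and 2544 at 30 h, and 726 and 511 differences. Under the block the differences between times of Sqstm1, Lipa and Scarb2 passed (adjusted p = 0.00341, 0.0226 and 0.0284). The labels name no batch, day or culture that same-numbered libraries share, so the numbers were not taken to pair them in the main fit. Deviations of same-numbered libraries from their group means correlated with r = 0.011 to 0.201, above 0 in all 6 pairs of groups. Whether these libraries shared a source of spread was not tested. Cd68, Idua, Tfeb, Sgsh and Cln3 lay under 35 CPM in all libraries, and 2 libraries per group limit every call.

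Single-gene values changed sign where they passed the test neither before nor after. With library totals the 6 h value was 0.0803 for Lamp1, 0.00903 for Ctsa, 0.0739 for Ctsz, 0.0275 for Man2b1, 0.0164 for Asah1, 0.014 for Psap and 0.0442 for Tpp1, the 30 h value of Asah1 was 0.0159, and the change of Ctsl with time in BRM014 was 0.0165. Ribosomal protein scaling gave 0.0353 for Lamp1 and 0.0277 for Ctsz at 6 h, 0.00488 for Ctsd, 0.049 for Ctsl, 0.0593 for Asah1 and 0.0215 for Npc2 at 30 h, and 0.0824 for Ctsl with time in BRM014. At 6 h Lamp1 and Ctsz (-0.00288 and -0.0089) were at 0.00662 and 0.000593 with RLE factors, 0.0171 and 0.011 without a filter, 0.0188 and 0.0127 with the stricter filter, 0.00663 and 0.000512 in DESeq2, and 0.0156 and 0.00956 with the libraries of the comparison alone. The cause was not tested.

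Leaving out a library spread the 6 h values over 0: Lamp1 -0.0444 to 0.0445, Lamp2 -0.0833 to 0.403, Ctsa -0.177 to 0.0261, Ctsh -0.53 to 0.0318, Ctsz -0.0597 to 0.0464, Hexa -0.0804 to 0.209, Neu1 -0.289 to 0.0596, Man2b1 -0.0811 to 0.000401, Asah1 -0.12 to 0.0207, Npc2 -0.0241 to 0.106, Lipa -0.372 to 0.155, Tpp1 -0.0716 to 0.00728, Atp6v1h -0.0507 to 0.0585, Atp6ap1 -0.174 to 0.00575 and Tfe3 -0.0199 to 0.0882. At 30 h this held for Lamp2 (-0.0993 to 0.189), Npc1 (-0.234 to 0.0991), Ctsa (-0.108 to 0.163), Ctsl (-0.191 to 0.12), Ctsz (-0.104 to 0.292), Hexa (-0.247 to 0.367), Naglu (-0.00327 to 0.254), Man2b1 (-0.021 to 0.0819), Asah1 (-0.0848 to 0.052), Npc2 (-0.126 to 0.0181) and Atp6v0d1 (-0.226 to 0.0117). The difference between times ranged from -0.718 to 0.00665 for Cd68, and the change of Ctsl with time in BRM014 from -0.061 to 0.00745.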
